A study of Caenorhabditis elegans with 2 samples.

Results

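The regions described are the places near genes for piwi-interacting RNAs (piRNAs) at which chromatin carrying the tagged SUMO ligase GEI-17 was listed as a candidate peak. A region was taken when its summit, the base of highest enrichment, lay within 200 bp of a gene annotated as a piRNA, and 227 of 29925 nuclear regions met this rule. The rule set no threshold on height, and where summits shared an interval the highest was the one placed. The regions lay near 293 of the 15363 annotated piRNA genes. Some overlapped one another, and joining overlaps left 200 separate places, of which 174 held a lone region and 26 held 2 or 3.

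The worms were Caenorhabditis elegans of strain OP572, in which unc-119(tm4063) is rescued by the integrated transgene wgIs572. That transgene carries unc-119(+) and gei-17 fused at its C-terminal end to TY1, EGFP and 3xFLAG, so a tagged copy is added to the genome. Both biological replicates, numbered 4 and 5, were 64 h old young adults of both sexes in 1 pool, grown from larvae that had been starved at the L1 stage after bleaching. They form 1 group of whole animals, so germline and somatic chromatin are mixed, and no list from untagged worms was used here. The antibody used for precipitation was raised to GFP.

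The piRNAs of C. elegans, also called 21U-RNAs, are short germline RNAs that begin with U and are bound by the Piwi-family Argonaute PRG-1, which they guide to foreign and transposon transcripts. Most are made from very short transcripts of their own by RNA polymerase II, crowded into large clusters on chromosome IV, and carry an upstream sequence known as the Ruby motif, with the core CTGTTTCA. Others arise at the start sites of coding genes and lack the motif. GEI-17 belongs to the PIAS family of SUMO E3 ligases, which help to attach the small protein SUMO to proteins on chromatin, and SUMO has been linked to piRNA-guided silencing in the worm germline.

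The loci below are those of 8 of the 9 regions that passed the filter on reproducibility (21ur-12279 is not shown), of regions just below it, among them the highest with the exact core near its summit, and of a place with 6 piRNA genes, shown so that the motif and its absence can be read directly. Each runs 5′ to 3′ on the strand of the piRNA gene, from 60 bases upstream to the last base of the gene, in the RefSeq sequence of WBcel235 (ce11). The capitals at the end mark the 21 bases of the piRNA, with T for U. Earlier capitals, where there are any, mark CTGTTTCA or, failing that, GTTTCA, starting 20 to 80 bases upstream of the gene, and nearer copies are left in lower case. The first 8 loci are the nearest piRNA genes of the regions that passed. The next, 21ur-12370, lies near the same region as 21ur-6535.
21ur-13751: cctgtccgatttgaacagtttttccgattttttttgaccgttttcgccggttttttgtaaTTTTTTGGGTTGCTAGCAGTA
21ur-15384: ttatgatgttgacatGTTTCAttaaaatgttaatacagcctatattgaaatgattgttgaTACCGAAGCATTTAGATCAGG
21ur-14704: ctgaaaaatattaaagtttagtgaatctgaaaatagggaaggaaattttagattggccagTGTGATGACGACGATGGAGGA
21ur-8870: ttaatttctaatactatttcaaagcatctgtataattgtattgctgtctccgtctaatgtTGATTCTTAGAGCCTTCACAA
21ur-6535: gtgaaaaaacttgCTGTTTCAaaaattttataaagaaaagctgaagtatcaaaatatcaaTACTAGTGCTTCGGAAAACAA
21ur-14870: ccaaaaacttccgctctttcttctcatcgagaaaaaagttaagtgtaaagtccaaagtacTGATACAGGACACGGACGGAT
21ur-1398: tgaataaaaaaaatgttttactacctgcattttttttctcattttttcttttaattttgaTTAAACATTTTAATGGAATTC
21ur-5229: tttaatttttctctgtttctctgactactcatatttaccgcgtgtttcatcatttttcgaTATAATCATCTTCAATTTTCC
21ur-12370: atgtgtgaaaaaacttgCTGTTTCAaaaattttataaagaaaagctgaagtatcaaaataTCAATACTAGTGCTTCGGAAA
21ur-2814: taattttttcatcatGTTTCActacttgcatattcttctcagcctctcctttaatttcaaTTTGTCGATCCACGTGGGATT
21ur-11069: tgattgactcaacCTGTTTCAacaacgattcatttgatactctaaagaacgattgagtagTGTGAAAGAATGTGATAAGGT
21ur-991: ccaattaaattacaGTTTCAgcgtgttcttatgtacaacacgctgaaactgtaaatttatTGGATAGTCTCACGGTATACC
21ur-14202: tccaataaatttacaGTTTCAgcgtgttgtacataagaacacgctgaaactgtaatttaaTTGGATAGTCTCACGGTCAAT
21ur-5050: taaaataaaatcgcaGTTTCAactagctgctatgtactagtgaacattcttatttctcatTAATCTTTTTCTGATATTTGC

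Every locus shown begins its piRNA with T. Among the highest regions, the locus of 21ur-6535 carries the exact core, starting 47 bases before the piRNA, and 21ur-12370, whose first base lies 4 bases upstream of it, shares that core at 43 bases. The other loci of the first 8 have no CTGTTTCA at that distance, and 21ur-15384 has the shorter GTTTCA 45 bases upstream. Over all 15363 piRNA genes, 33.6% had CTGTTTCA starting 20 to 80 bases upstream on their own strand and 63.4% had GTTTCA, which the longer core contains. Where CTGTTTCA was present, it began 38 to 50 bases upstream in 98.6% of genes.

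The data were 4 lists of regions with a signal value for each, the peak caller's own number, whose scale is not stated. Heights were therefore read as percentiles within a list, where 100 is the highest nuclear region. A region's replicate value is that of the highest candidate of that replicate sharing any base with it, so neighbouring regions can carry the same value. The pooled list and each replicate list stopped at 30000 summits and hold peaks and background together. A region passed the irreproducible discovery rate (IDR) filter, which keeps peaks that rank alike in both replicates, in 976 of 29925 pooled cases, and in these lists that meant a pooled signal of 110.4 or more. Read depth is unknown, and the 95% intervals given (Clopper-Pearson for shares) cover the counting of regions only. No p-value was computed, because the study has 1 group and regions are not replicates.

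Candidate regions were sparse near piRNA genes. The sequence within 200 bp of a piRNA gene made up 3.32 Mb, which is 3.32% of the nuclear genome, and it held 0.759% of the regions. This was 68.3 regions per Mb, against 306.3 per Mb in the rest of the nuclear genome. The ratio of these densities was 0.223, with a 95% Poisson interval of 0.195 to 0.254 from the 227 regions alone. Sequence within 200 bp of transfer RNA (tRNA) genes, which are also short and non-coding, held 1574 regions per Mb.

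The lowest densities were where piRNA genes are crowded. Bins of 100 kb with 10 or more piRNA genes formed 2 dense spans of chromosome IV. Span 1, chrIV:4813581-7397718, held 2851 piRNA genes in 2.58 Mb, and span 2, chrIV:13543927-17489571, held 11563 in 3.95 Mb. In span 1, sequence near piRNA genes had 83.6 regions per Mb and the rest of the span 254.5. In span 2 the same values were 37.8 and 232.2. Outside the spans, sequence near the scattered piRNA genes had 209.0 regions per Mb, closer to the 308.7 of the remaining sequence there. Within each span, the sequence beside the piRNA genes was thus the sparser, and it also differed in composition. It was 30.4% GC in span 1, against 35.1% in the rest of that span. In span 2 the values were 29.3% and 36.2%.

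**Figure D1:**
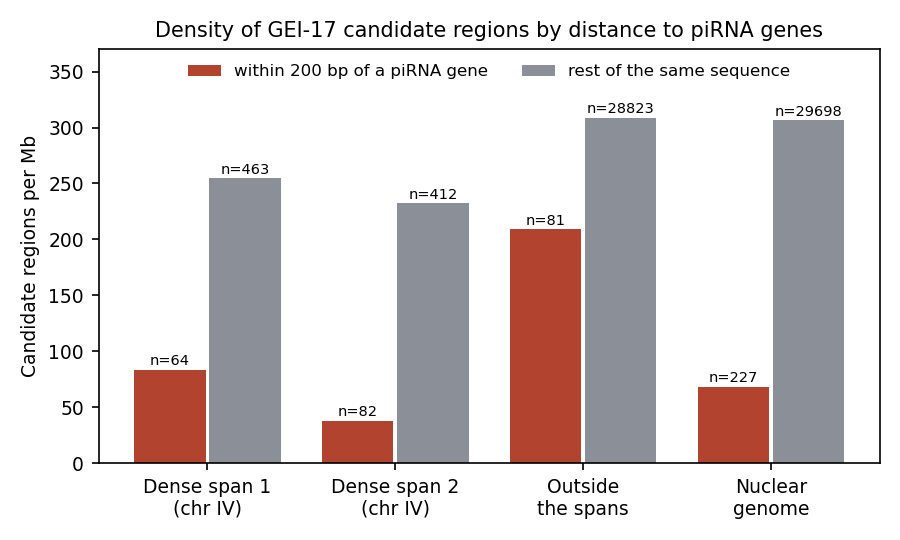
Candidate regions per Mb (vertical axis) in sequence within 200 bp of a piRNA gene and in the rest of the same sequence, for each dense span of chromosome IV, for the genome outside them and for the nuclear genome. Bars are totals with the number of regions (n) above them and carry no replicate error; the bar near piRNA genes is the lower of each pair, at 37.8 per Mb in span 2 and 209.0 outside the spans.

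The low density moved with base composition. Sequence near piRNA genes was 29.98% GC, against 35.6% in the rest of the genome, and region density rose with GC in both. In the most AT-rich sequence, under 25% GC within 100 bp on each side, there were 12.3 regions per Mb near piRNA genes and 46.7 in the rest. At 30 to 35% GC the values were 76.6 and 177.8. At 45% GC or more they were 538.1 and 881.7, over 29 regions. The ratio was below 1 in every bin, at 0.263, 0.284, 0.431, 0.438, 0.547 and 0.610 from the lowest GC to the highest, over bins that mix sequence of the spans with the rest of the genome. Sequence near piRNA genes was not repetitive: 97.3% of its 32-base words occurred once in the nuclear genome, against 91.2% in the rest. Near piRNA genes the share was 98.8% in span 1 and 96.6% in span 2, against 86.8% and 77.4% in the rest of those spans. Over the sequence where words that occur once predominate, the ratio of densities was 0.206. Read coverage was not measured, and the part of coverage and of GC in these densities was not tested.

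**Figure D2:**
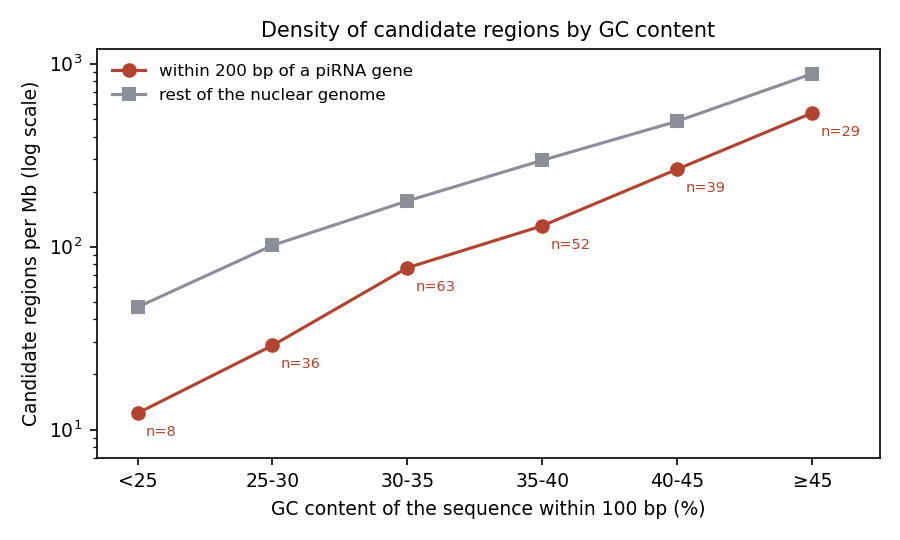
Candidate regions per Mb (vertical axis, log scale) by the GC content within 100 bp on each side (horizontal axis), near piRNA genes and in the rest of the nuclear genome, with the number of regions near piRNA genes beside each point. Both lines rise with GC, and the line near piRNA genes lies below the other in every bin, from 12.3 against 46.7 to 538.1 against 881.7 per Mb.

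Counted by gene, 293 of 15363 piRNA genes (1.91%, interval 1.70 to 2.14%) had a candidate summit within 200 bp. The share was 2.95% in span 1, 1.13% in span 2 and 8.22% of the 949 genes outside the spans. The same count gave 63.2% of 612 tRNA genes and 46.2% of 346 small nucleolar RNA (snoRNA) genes. It gave 35.7% of 129 small nuclear RNA (snRNA) genes and 24.9% of 261 microRNA (miRNA) genes. A summit that passed IDR lay within 200 bp of 11 piRNA genes (0.0716%), against 17.8% of tRNA, 14.7% of snoRNA, 13.2% of snRNA and 1.92% of miRNA genes. The piRNA genes had the lowest share of the 5 classes on both counts. Genes that lie close together share a region, so genes are not independent in these counts.

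Where a region was listed near a piRNA gene, its height was close to the middle of the list. The 227 signals ran from 20.5 to 229.7 with a median of 35.3, and the median percentile was 53.5 (interval 49.3 to 57.7) where 50 is the middle of all regions. In either replicate list alone the median was on the other side of the middle, at 45.9 in replicate 5 and 41.9 in replicate 4. Regions in the spans with no piRNA gene within 200 bp had a median percentile of 53.1. Regions near tRNA genes stood at 87.6 and those near snoRNA or snRNA genes at 88.5, and neither interval overlapped that of the regions near piRNA genes. Above percentile 90 stood 24 of the 227 regions (10.6%), and above percentile 95 stood 13 (5.73%). Within the spans the median percentile was 53.1, and outside them it was 56.3, with overlapping intervals.

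**Figure D3:**
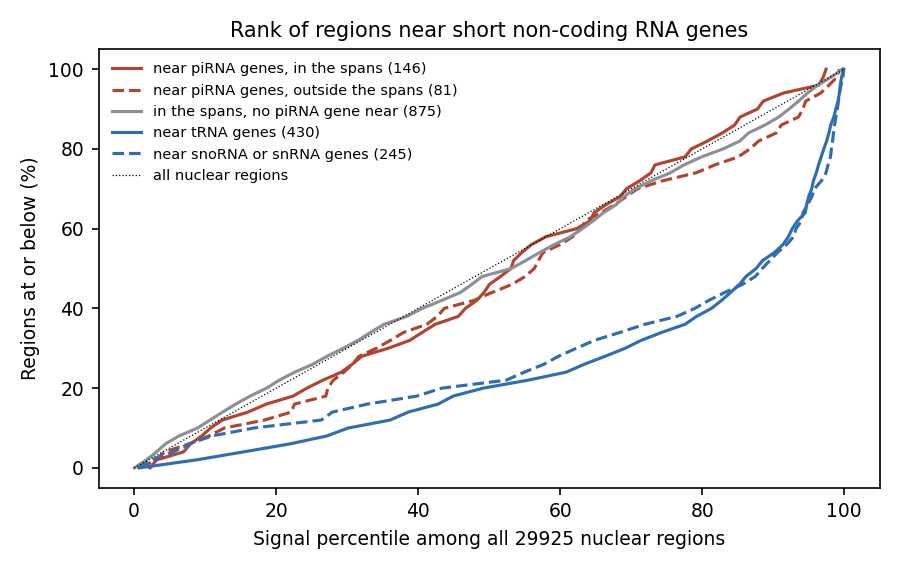
Cumulative share of regions (vertical axis, %) at or below each signal percentile of the pooled list (horizontal axis) for regions near piRNA genes in and outside the dense spans, for other regions of the spans and for regions near tRNA, snoRNA or snRNA genes. The dotted diagonal is all nuclear regions; the piRNA lines run close to it (medians 53.1 and 56.3) while the tRNA and snoRNA or snRNA lines lie far to the right (medians 87.6 and 88.5).

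Of the 227 regions, 9 passed IDR (3.96%, interval 1.83 to 7.39%), against a background of 3.26% over all nuclear regions, so the share was near the background. It moved with the choices made: 1.61% passed with 100 bp in place of 200 bp. In a top of about the same size from replicate 5 alone the share was 1.65%, against 3.25% of all its regions, and in replicate 4 alone 3.65%, against 3.36%. In the pooled list it was 4 of 146 in the spans (2.74%) and 34 of 875 for span regions with no piRNA gene near (3.89%). Outside the spans it was 5 of 81 (6.17%, interval 2.03 to 13.8%). The corresponding share was 96 of 430 near tRNA genes (22.3%) and 69 of 245 near snoRNA or snRNA genes (28.2%). The lowest of the 9 had a signal of 115.7 and the highest that did not pass had 109.5.

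The highest regions near piRNA genes lay outside the dense spans, in the promoter windows of coding genes (1000 bp upstream to 200 bp downstream of a start). The region chrII:1320527-1320744 had a pooled signal of 229.7, with 93.4 for replicate 4 and 141.5 for replicate 5. These values put it at percentiles 99.3, 99.1 and 99.4, so it was near the top of every list. Its summit lay 109 bp upstream of 21ur-13751 (chrII:1320733-1320753, plus strand) and in the promoter window of vig-1, the worm counterpart of Drosophila VIG, a protein found in the RNA interference effector complex.

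The region chrI:12652171-12652365 had signals of 204.3 pooled, 86.7 in replicate 4 and 124.3 in replicate 5, at percentiles 99.1, 98.9 and 99.2. It lay 113 bp upstream of 21ur-12279 and in the promoter windows of atp-1, which encodes a subunit of mitochondrial ATP synthase, and mcrs-1. Like the vig-1 region, it was high in both replicates. The region chrV:6278391-6278604 had signals of 187.2, 107.5 and 89.9 in the same order and lay 121 bp beyond the 3′ end of 21ur-15384 (chrV:6278355-6278375, plus strand), in the promoter window of fil-2, a lipase gene. These were the narrowest of the named regions, at 218, 195 and 214 bp, where 98.2% of pooled intervals were 444 bp wide.

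The region chrII:6968094-6968537 had signals of 141.9 pooled, 91.4 in replicate 4 and 64.8 in replicate 5. A region that overlaps it, chrII:6968309-6968752 (pooled signal 89.9), draws on the same candidate in each replicate. Of the 9, chrII:6968094-6968537 was the closest to its piRNA gene, 2 bp from 21ur-14704 (chrII:6968318-6968338, minus strand). The summit also lay in the promoter window of eif-2Bgamma, which encodes a subunit of the translation initiation factor eIF2B, inside the gene C15F1.5, and within 200 bp of the snRNA gene sup-39. On X, the region chrX:13356547-13356990 had signals of 115.9, 65.9 and 53.0. It lay in intergenic sequence 186 bp from 21ur-14870 (chrX:13356563-13356583, plus strand) and was the lowest of the 5 outside the spans.

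In span 1, the highest region was chrIV:6839075-6839518, with signals of 123.2 pooled, 52.8 in replicate 4 and 67.0 in replicate 5. It was intergenic, with 21ur-8870 (chrIV:6839476-6839496, plus strand) and 21ur-14312 both within 200 bp and the ncRNA genes C05B10.19 and C05B10.21 beside it. The other region of span 1 that passed, chrIV:5967005-5967448, had signals of 115.7, 38.7 and 81.2, at percentiles 97.0, 91.6 and 97.8. It was high in replicate 5 and lower in replicate 4. Its summit lay 118 bp from 21ur-5229 (chrIV:5967089-5967109, plus strand), inside the ncRNA gene B0350.73 and within 200 bp of a tRNA gene.

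In span 2, the highest region was chrIV:15899263-15899706, with signals of 118.0 pooled, 65.5 in replicate 4 and 64.5 in replicate 5, at percentiles 97.2, 97.8 and 96.2. It lay in intergenic sequence 46 bp beyond the 3′ end of 21ur-6535 (chrIV:15899531-15899551, minus strand), whose locus carries the exact core. Around its summit the sequence was 25.4% GC, the lowest of the 9. The region chrIV:16167158-16167601, 190 bp from 21ur-1398 (chrIV:16167170-16167190, plus strand), had signals of 115.8, 75.5 and 48.9, and was higher in rank in replicate 4 (98.4) than in replicate 5 (92.2). It overlaps the highest region that did not pass, chrIV:16167357-16167800 near 21ur-2814 (pooled signal 109.5), and both draw on the same candidate in each replicate.

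Of the regions just below the filter, some were uneven between the replicates. The region chrIV:16180782-16181225 near 21ur-13200 had signals of 108.5 pooled, 38.4 in replicate 4 and 85.5 in replicate 5. The region chrV:13081166-13081609 near 21ur-11069 had 108.3 pooled, 27.0 in replicate 4 and no candidate in replicate 5. It was the highest region with CTGTTTCA within 100 bp of its summit. The highest region of III, chrIII:7189701-7190144 beside 21ur-7304 and the promoter of the ribosomal protein gene rps-21, had 85.8, 41.2 and 51.0. The highest on IV outside the spans, chrIV:2387840-2388283 near 21ur-15588 in the 3′ UTR of Y38F2AR.3, had 64.1, 43.6 and 31.2.

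**Figure D4:**
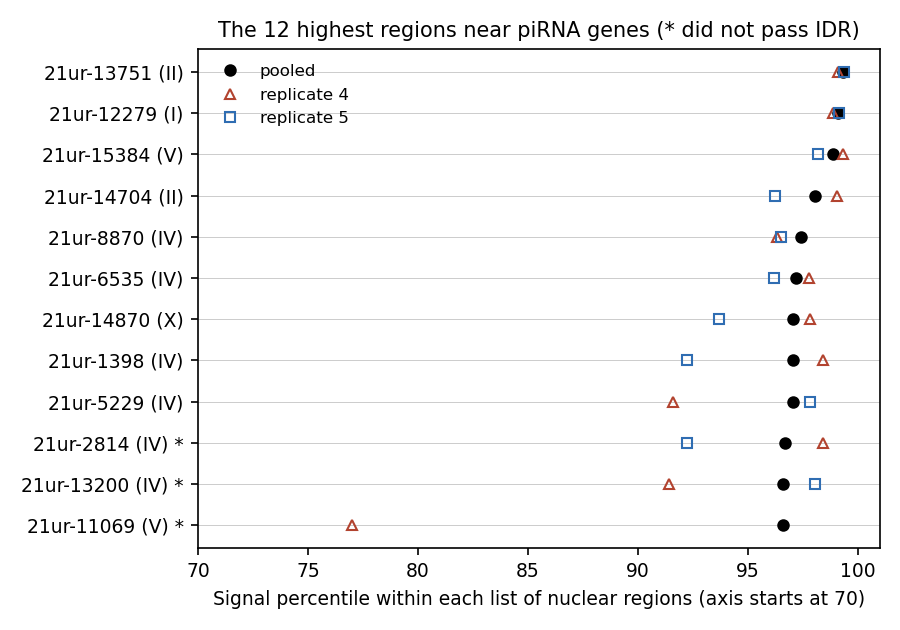
Signal percentile (horizontal axis, starting at 70) of the 12 highest regions near piRNA genes in the pooled list and in each replicate list, with the nearest piRNA gene and its chromosome on the vertical axis. The 6 highest lie above percentile 96 in all lists; 21ur-11069 stands at 77.0 in replicate 4 and has no point for replicate 5.

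Across all 227 regions, 126 (55.5%) overlapped a candidate in both replicates and 11 (4.85%) in neither, against 56.0% and 5.32% of all nuclear regions. When a summit of each replicate had to lie within 100 bp, the shares fell to 24.7% and 26.1%. Replicate 4 had a candidate at 162 of the 227 (71.4%, against 72.8% of all nuclear regions) and replicate 5 at 180 (79.3%, against 78.0%). Among the 126, the rank correlation of replicate 4 with replicate 5 (Spearman) was 0.48, and it was 0.45 over the 16646 other regions present in both. These correlations are descriptions across regions of the same libraries. Taken by the same rule from the list of 1 replicate, 243 regions lay near piRNA genes in replicate 5 and 301 in replicate 4. The ratio of densities was then 0.239 and 0.296.

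In the dense spans, introns were the most frequent location of a summit. In the spans, 64 of the 146 summits were intronic (43.8%), 34 intergenic (23.3%), 24 in coding exons (16.4%) and 20 in promoter windows (13.7%). For the 875 span regions with no piRNA gene near, 24.7% were intronic and 24.8% in promoter windows. The positions of the piRNA genes themselves bear on this: 52.6% of those in the spans were intergenic and 32.8% intronic. The share of genes with a region was 2.56% of the 4731 intronic piRNA genes in the spans (interval 2.13 to 3.05%) and 0.791% of the 7585 intergenic ones (0.604 to 1.02%). The highest share of the classes in the spans was 3.88%, or 10 of the 258 genes in coding exons (1.87 to 7.01%). In promoter windows it was 1.3% of 1611 and in 3′ UTRs 2.08% of 96.

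Outside the spans the order was different. There, 34 of the 81 summits were in promoter windows (42.0%) and 18 in introns (22.2%). For the 28823 regions outside the spans with no piRNA gene near, 24.1% were in promoter windows and 26.9% in introns. Of the piRNA genes in promoter windows outside the spans, 32 of 244 had a region (13.1%, interval 9.15 to 18.0%), against 7.44% of the 215 intronic and 4.96% of the 262 intergenic genes. The smaller classes of 3′ UTR (6 of 26, 23.1%, interval 8.97 to 43.6%) and other non-coding genes (3 of 14, 21.4%) had higher shares with wide intervals, and coding exons had 4.40% of 182. Of the 54 summits in promoter windows over the whole genome, 4 passed IDR (7.41%), against 6.68% of all nuclear regions in such windows. Of the 173 elsewhere 5 passed (2.89%), against 2.18%. Other short RNA genes lay beside few regions, as they did over all nuclear regions. A tRNA gene lay within 200 bp of 3 of the 227 (1.32%, against 1.44% of all nuclear regions). An snRNA gene lay near 2 (0.881%, against 0.217%). None had an snoRNA or miRNA gene (0.605% and 0.237% of all nuclear regions). A gene of the ncRNA class lay near 15 (6.61%, against 7.03%).

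Over the whole set, the core was about as frequent upstream of piRNA genes with a region as of those without. In the spans and outside them, taken apart, the shares differed. CTGTTTCA on either strand lay within 100 bp of 41 of the 227 summits (18.1%), against 1.19% of all nuclear regions and 1.14% of span regions away from piRNA genes. The rule selects piRNA loci, so this contrast follows from the choice of regions. Compared among piRNA genes, the core lay 20 to 80 bases upstream in 32.1% of the 293 genes with a region (interval 26.8 to 37.8%) and 33.6% of the 15070 without. In the spans taken alone, the share was higher with a region, at 42.3% (35.6 to 49.2%) against 34.9% without. Outside the spans they were 3.85%, or 3 of 78 genes, and 12.3%. Genes that lie close together can share a region and a copy of the core. They are therefore not independent in these shares, which the intervals do not take into account.

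None of the 41 regions with the core within 100 bp passed IDR, which allows a share of up to 8.60%, and 9 of the 186 without it did (4.84%, interval 2.24 to 8.99%). Over all nuclear regions 3.26% passed, which lies within both intervals, and of the 356 regions anywhere with the core 13 passed (3.65%). Of the 9, the region near 21ur-6535 has the exact core in its locus, but more than 100 bp from its summit. The absence of the core among regions that passed thus depends on the window. The median percentile was 53.3 with the core and 54.1 without, so the middle of the ranks lay close together. The regions with the core had a median GC of 32.3%, against 36.8% for those without it, and the part of GC in the count was not tested. The initial T of the piRNA was present in 94.9% of genes with a region and 96.3% of those without. Outside the spans it was present in 88.5% of the 78 genes with a region (79.2 to 94.6%) and 97.0% of the 871 without. Of those with a region, 21ur-15588 begins with G.

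Summits kept no fixed position relative to the piRNA gene. Measured along the strand from the 5′ end, 105 lay upstream, 7 inside the gene and 115 downstream, with a median 21 bp downstream. Bins of 50 bp from 200 bp upstream held 22, 29, 26 and 28 summits before the 5′ end and 30, 27, 32 and 27 after it. The spread across the window was close to even, with no peak at the distance of the motif. In the spans, 60 were upstream and 81 downstream, and outside them 45 upstream and 34 downstream. The median distance from the gene was 89 bp. Interval width was nearly constant at 444 bp, so it does not measure how well a summit is placed. In 24.7% of the regions, both replicates had a summit within 100 bp of the pooled one. Whether summits can resolve the motif from the piRNA itself was not tested.

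**Figure D5:**
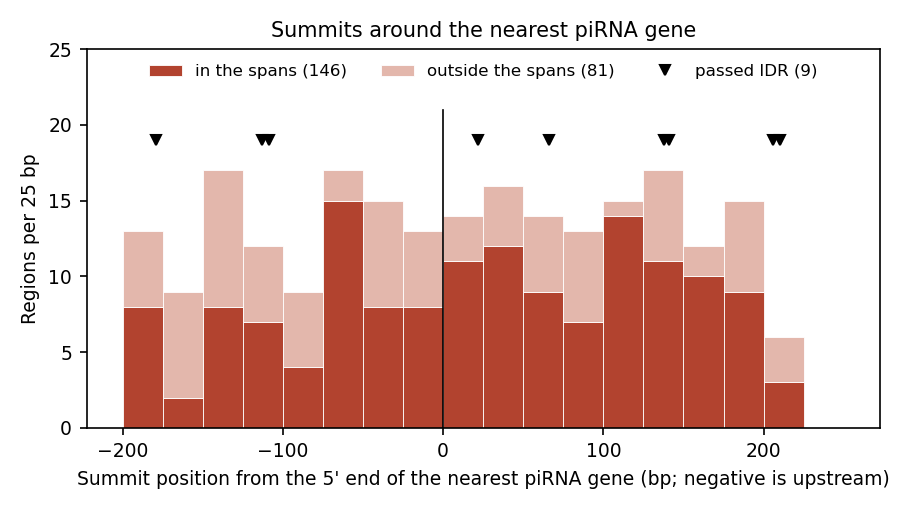
Number of regions per 25 bp (vertical axis) by the position of the summit from the 5′ end of the nearest piRNA gene along its strand (horizontal axis, bp), split into regions in the dense spans and outside them, with triangles for the 9 that passed IDR. Summits are spread over the whole window, with 105 upstream and 115 downstream of the gene.

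Crowding of piRNA genes did not go with greater height. A lone piRNA gene lay within 200 bp of 170 summits, 2 genes lay near 36, 3 near 15, and 4 to 6 near the other 6. The median signal was 35.8 with 1 gene, 35.3 with 2 and 34.3 with 3. Regions with 2 or more genes had a candidate in both replicates in 24 of 57 cases (42.1%, interval 29.1 to 55.9%), and those with 1 gene in 102 of 170 (60%, 52.2 to 67.4%).

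The most piRNA genes near a summit was 6, at 2 overlapping regions. The higher, chrIV:16543657-16544100, had a pooled signal of 30.5, at percentile 40.4, and the other, chrIV:16543422-16543865, had 27.3, at percentile 29.2. Neither replicate list had a candidate at these places. Of the 6 genes near the higher region, 21ur-991 and 21ur-14202 lie on opposite strands and point away from each other. The 56 bases between them hold a run of 18 bases and, further on, its reverse complement, and each copy contains the GTTTCA upstream of its own gene. The piRNA sequences of 21ur-991 and 21ur-14202 share a run of 16 bases, and 21ur-5050, on the same strand as 21ur-991, shows a different sequence.

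At the edge of the 200 bp rule, the regions just inside lay 198 bp from 21ur-5366 (signal 30.7) and 195 bp from 21ur-14724 (signal 81.9). Those just outside lay 201 bp from 21ur-3797 (signal 20.6) and 202 bp from 21ur-10600 (signal 41.1). In all, 65 regions lay 201 to 260 bp away, and 4 of them passed IDR (6.15%, against 3.26% of all nuclear regions).

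Genes that make piRNAs or act with them were looked up apart from the piRNA loci, from a list of 38 symbols of which 35 were in the annotation. A candidate lay in the promoter window of 14, and it passed IDR at 1 of them. The share of all protein-coding genes with a candidate there is not given here, so the count of 14 has no background. Over all protein-coding genes with a candidate in that window, 9.65% had one that passed. The gene was ego-1, which encodes an RNA-dependent RNA polymerase that makes secondary small RNAs in the germline. Its region had signals of 200.3 pooled, 100.5 in replicate 4 and 114.7 in replicate 5, with the summit 354 bp upstream of the start.

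The other genes of the list had lower candidates. The helicase gene rde-12 stood at 84.2, henn-1, whose product methylates the 3′ end of piRNAs, at 64.2, and tofu-1, needed for piRNA production, at 48.4. The nucleotidyltransferase gene mut-2 stood at 36.3 and pid-2, of piRNA-induced silencing, at 35.8. The median percentile of the 14 was 46.5, against 65.9 for all coding genes with a candidate. No candidate lay in the promoter window of prg-1, the Piwi Argonaute itself. None lay at snpc-4, tofu-4 or tofu-5, whose products act with PRDE-1 at piRNA promoters, and prde-1 had a candidate of 32.7. These genes were named after their values were seen, and most genes of the list had no candidate.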

How the data were processed

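Chromatin immunoprecipitation with an antibody to GFP was sequenced from 2 biological replicates of 1 group. Per the listings deposited beside the samples, candidates were called on each replicate and on the pooled alignments, each with a control alignment, and the IDR list was derived from them. The calling program is not given in the sources used here, nor is the IDR cutoff. For each summit the authors deposited a signal score, used only to rank regions within a list. A −log10 q value from the authors stood at its ceiling of 2.89 for all that passed IDR and was not used further.

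Summits sharing an interval were merged to the highest, giving 29937 pooled intervals, of which 29925 were nuclear. Positions are in ce11 per the labels. Genes came from Ensembl release 115 (WBcel235), sequence from RefSeq. Each summit took the first class that applied among promoter window, UTR, coding exon, other non-coding gene, intron and intergenic. Densities divide nuclear regions by the length of sequence. Overlap with a replicate means any shared base, and where several candidates overlapped, the highest gave the replicate value.

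Named regions were the 12 highest (those passing IDR first), the highest of each span and chromosome, the one with the most piRNA genes (of 2 tied, the higher), and those nearest the 200 bp and IDR limits. Named pathway genes were those passing IDR and the 5 next highest candidates. prde-1, prg-1, snpc-4, tofu-4 and tofu-5 were named after their values were seen. Members and lists were chosen with earlier results of these data known. Shares have exact Clopper-Pearson intervals. Counting procedures were tested on simulated data. Alternatives were other distances, lists, thresholds, motif windows and overlap criteria. Software was numpy 2.4.6, scipy 1.17.1, pandas 2.3.3 and matplotlib 3.10.9 under Python 3.11.15.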

Additional observations from a re-analysis of the deposited data

How the results depend on the processing

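Of 57 alternative values, 32 stayed close (shares, the median and the density ratio within the 95% interval, counts within 1.5 times) and 25 moved. With 100 bp in place of 200 bp there were 124 regions, of which 1.61% passed IDR and 26.6% had the core. With 500 bp there were 464, of which 57.1% lay in the spans and 10.3% had the core. Using either replicate list alone gave 243 to 301 regions, 1.65 to 3.65% in a top of the same size, a median percentile of 41.9 to 45.9, 58.0 to 71.4% in the spans, 17.3 to 18.3% with the core and a density ratio of 0.239 to 0.296. The top 500 nuclear regions held 1.32% of those near piRNA genes (1.67% of all) and the top 2000 held 8.37% (6.68% of all). The core lay within 50 bp of 9.69% of summits and within 200 bp of 32.6%, and GTTTCA within 100 bp of 43.6%. Over all nuclear regions these shares were 0.525%, 2.52% and 15.8%. Asking a replicate candidate to cover 50% or more of the interval left 41.9% in both replicates (42.5% of all regions), and a summit within 100 bp left 24.7% (26.1%). The density ratio, whose alternatives were chosen after seeing the data, was 0.271 for regions that passed IDR and, by GC from low to high, 0.263, 0.284, 0.431, 0.438, 0.547 and 0.610. Regions that passed IDR numbered 2.61 per Mb near piRNA genes and 6.60 in the rest of span 1, and 0.921 and 12.4 in span 2. Outside the spans the direction was reversed, at 12.9 per Mb near piRNA genes, over 5 regions, and 9.99 in the rest. The cause of these shifts beyond the changed definition was not tested. The count of pathway genes that passed was 1 under all 3 promoter windows. No paired analysis was possible because the study has 1 group. Depth is unknown, the lists end at 30000 summits, and no untagged control list was used.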
